A study of Mus musculus with 4 samples.

Results

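Ribosomal protein genes were followed across the cell classes of mouse small intestine and lung. Members were taken by symbol, as the small subunit (Rps), large subunit (Rpl), stalk (Rplp) and Rpsa genes without the Rps6k kinase genes, which gave 84 genes of the 21036 in the singlet tables. All 84 are in the lung tables and 81 in the small intestine tables, where Rpl3l, Rpl10l and Rpl39l were not analysed here. The 84 divide into 31 small subunit genes, 43 large subunit genes, 3 stalk genes and 7 paralogs, which are close relatives of a core gene.

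The study compared clusters of attached cells (multiplets) with single cells (singlets) of C57BL/6J mice, an inbred strain, so as to learn which cell types make up each cluster. The 4 groups were small intestinal epithelium multiplets, small intestinal epithelium singlets, lung multiplets and lung singlets, with 1 droplet RNA library each and no treatment or mutation named. The labels name no animals, and they do not say how clusters and single cells were parted. With 1 library per group there is no replicate check, so no test was run, and intervals below are exact 95% intervals that cover counting error only.

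The ribosome is built of a small subunit, which reads the messenger RNA, and a large subunit, which joins the amino acids, each holding ribosomal RNA and one copy of most of its proteins. The stalk of the large subunit carries several acidic proteins and calls in the elongation factors. In vertebrates, messages for these proteins begin with a C followed by a run of C and T letters (the terminal oligopyrimidine tract), through which mTOR and the RNA-binding protein Larp1 adjust their translation as a group. Cells that grow or divide are known to make many ribosomes.

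Values are unique molecular identifiers (UMIs), each standing for 1 captured transcript, as a share of all UMIs or as CPM, which is that share scaled to a fixed total of UMIs. A gene was called higher or lower past 1.5-fold where either class or library held at least 50 UMIs. Library totals ranged from 47764845 to 66277622 UMIs, over 3671 to 6084 barcodes each, and 2 to 15 barcodes were shared by any pair of libraries. The authors' classes were checked against marker genes, and the class named for a cell type was the highest for that type's markers in nearly all lists. The exceptions bear on the lung: fibroblast markers summed to 15581 CPM in Fibroblast-2, 6363 CPM in the 10 mesothelial barcodes and 4525 CPM in Fibroblast-1, and neutrophil markers, for which there is no class, were highest in the Macrophage class at 3139 CPM.

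In the small intestine the share of UMIs on ribosomal protein genes was highest in stem cells, lower in each progenitor class and lowest of these in enterocytes. It was 27.3% in the 587 stem barcodes, 21.7% in transit amplifying, 21.2% in early progenitor, 15.9% in late-1 progenitor, 15.2% in late-2 progenitor and 5.63% in the 191 enterocyte barcodes (95% Clopper-Pearson interval 5.60% to 5.66%, against 27.2% to 27.3% in stem). The middle 50% of barcodes spanned 19.9% to 23.8% in transit amplifying barcodes and 25.6% to 29.2% in stem barcodes, which do not overlap. Early progenitors, at 18.4% to 23.7%, overlap with transit amplifying barcodes almost wholly. The late-1 and late-2 progenitors overlap in the same way, at 13.6% to 18.5% and 11.04% to 18.6%. The order follows the names of the classes, and markers do not place late-2 progenitors beside enterocytes. Enterocyte markers summed to 34669 CPM in enterocytes, 1865 CPM in late-1 progenitors, 51.1 CPM in late-2 progenitors and 41.3 CPM in stem cells. Enterocytes stood apart, since 95% of their barcodes lay below 10.8% while 95% of stem barcodes lay above 17.2%.

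The secretory classes fell between these ends, except for Paneth cells, which secrete antimicrobial peptides. Goblet cells, the mucus makers, held 15.8%, enteroendocrine cells 16.4% and tuft cells 13.8%. Paneth barcodes held 2.38%, the lowest share of any intestinal class. In that class 50 other genes, led by the defensin Defa24, took 83.6% of all UMIs, and with the class's 50 most abundant other genes left out of the total the Paneth share was 14.5%. The same step gave 8.10% in enterocytes and 33.2% in stem barcodes. Counted per barcode instead of per UMI, the median was 456.5 ribosomal protein UMIs in Paneth barcodes, 473 in enterocytes and 1743 in stem barcodes, at median depths of 25594.5, 11039 and 6199 UMIs.

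In the lung T and B cells led. T cells held 32.2% of their UMIs on these genes and B cells 25.4%, while natural killer (NK) cells held 16.8%. Macrophages at 18.6% and alveolar macrophages at 13.3% were the other immune classes. The stromal classes were lower, at 13.1% in Fibroblast-2 and 8.38% in the 2964 barcodes of Fibroblast-1. Epithelial shares were 9.64% in surfactant-making Type II pneumocytes, 8.58% in Clara cells, which line the airways, and 5.37% in ciliated cells, and endothelial barcodes held 9.84%. The 6 Type I pneumocyte barcodes and the 10 mesothelial barcodes, at 3.86% and 9.57%, are too few to place. In Clara barcodes 50 other genes, led by Scgb1a1, took 64.5% of UMIs, and without them the share was 24.1%. Depth moved with the share in Clara cells, at medians of 12.1% in the shallower and 5.78% in the deeper barcodes, and the other way in enteroendocrine cells, at 11.1% and 19.8%. Fibroblast-1, against which the other lung classes are set below, had medians of 5.77% in the shallower and 9.04% in the deeper barcodes, NK cells 14.4% and 18.6%, and enterocytes 3.64% and 5.30%. The part of depth in these shares was not tested.

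**Figure D1:**
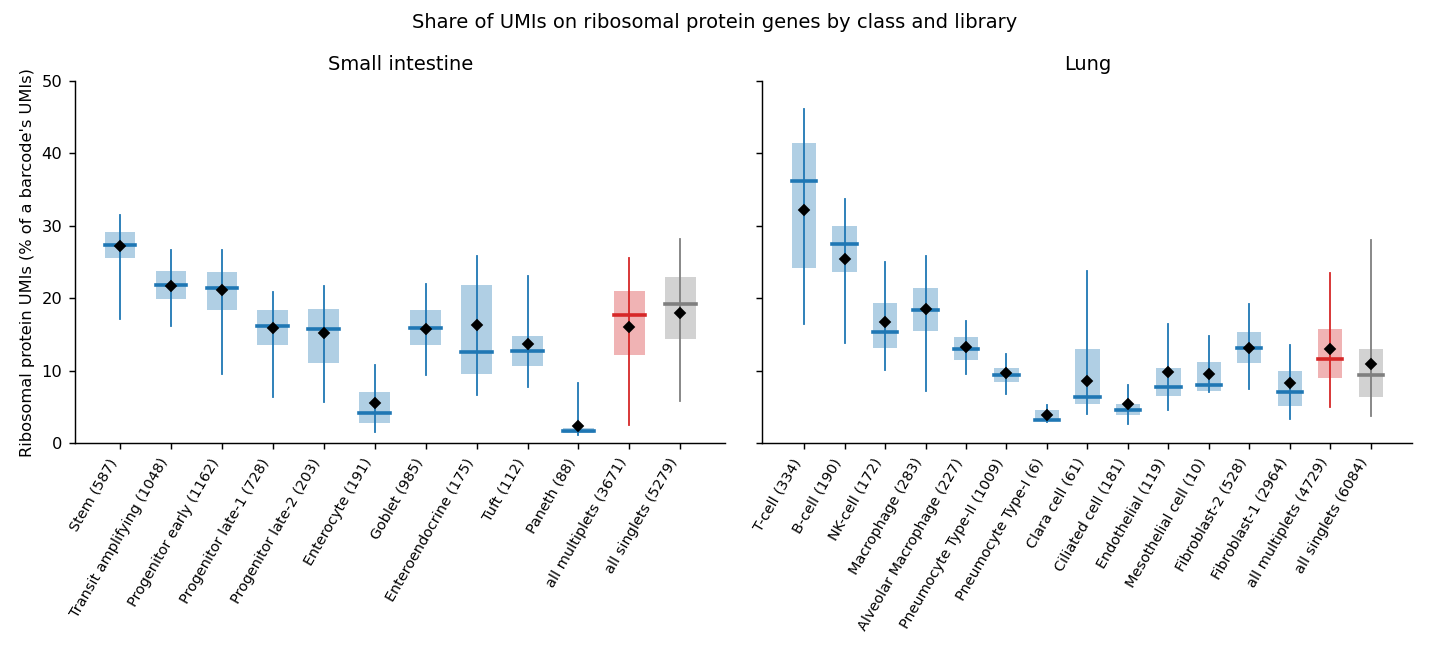
Share of each barcode's UMIs on ribosomal protein genes (y axis, percent) by class, with the number of barcodes in brackets; lines span the 5th to 95th percentile of barcodes, boxes the middle 50%, bars mark the median and diamonds the pooled share. Stem barcodes are highest in the small intestine at 27.3% and T cells in the lung at 32.2%, and the all-barcode columns show multiplets below singlets in the small intestine and above them in the lung.

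Set against stem cells, enterocytes had lower levels of nearly every member. The summed level was 0.206 times that of stem barcodes (95% interval 0.205 to 0.208). Of 81 members, 79 had enough UMIs, of which 77 were lower and 0 higher past 1.5-fold. Over all 7297 genes tested, 48.2% were lower and 22% higher, and the median ratio was 0.700 against 0.208 for the members. Rpl10 and Rpl27 were too sparse to call, with 8 and 3 UMIs in enterocytes and 46 and 29 in stem barcodes. Enterocyte barcodes were deeper than stem barcodes and had more mitochondrial RNA, at a median of 6.60% against 4.86% of UMIs; the part of these differences was not tested.

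The subunits fell side by side. Small subunit genes summed to 25240 CPM in enterocytes against 128052 CPM in stem cells, and 31 of 31 were lower. Large subunit genes summed to 27485 CPM in enterocytes against 129751 CPM in stem cells, and 41 of the 41 tested were lower. The rank order of members was much alike in the classes, with a Spearman correlation of 0.954 between enterocytes and stem cells over 81 genes, a description of points that share a library and gene-specific capture.

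At the low end stood Rpl12, a protein at the base of the stalk, with 359 CPM in enterocytes and 3047 CPM in stem cells, a ratio of 0.118 (0.109 to 0.127). Rpl3, which lies close to the site of peptide bond formation, had 869 CPM in enterocytes and 6185 CPM in stem cells (ratio 0.141). Rps19, a gene mutated in human Diamond-Blackfan anaemia, had 1072 CPM in enterocytes and 7181 CPM in stem cells (ratio 0.149). Rps18, of the head of the small subunit, had a ratio of 0.159 and the large subunit gene Rpl35 one of 0.160. Rps12 had a ratio of 0.151, but from few UMIs, and its interval ran from 0.059 to 0.325.

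At the other end were 3 paralogs, Rpl38, Rpl7a and Rpl41. Rps27l, a relative of Rps27 that p53 induces in human cells, had 586 CPM in enterocytes and 621 CPM in stem cells, a ratio of 0.944 (0.878 to 1.01). Rpl36al, a relative of the X-linked Rpl36a, had 62.9 CPM in enterocytes and 75.3 CPM in stem cells (0.835, 0.670 to 1.04). These are the 2 members tested that were not called lower. Rpl7l1, a relative of Rpl7, had a ratio of 0.584. Then came Rpl38 at 0.372, whose loss in mice disturbs the pattern of the axial skeleton, Rpl7a at 0.346 and Rpl41, the shortest of the ribosomal proteins, at 0.337. Relative to the summed ribosomal protein UMIs, 8 members were over 1.5-fold higher in enterocytes and 1, Rpl12, was lower. How many of all genes pass these limits was not counted. Their median ratio of 0.700 lies above the summed ratio of 0.206, so genes at large also stand higher on this scale.

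Followed over the classes in the order above, Rpl12 had 3047 CPM in stem, 2163 in transit amplifying, 2267 in early progenitor, 1439 in late-1, 1309 in late-2 and 359 in enterocyte barcodes. Rps27l took another course, with 621 CPM in stem, 784 in transit amplifying, 902 in early progenitor, 821 in late-1, 669.7 in late-2 and 586 in enterocyte barcodes. So the level of Rps27l was highest in early progenitors, where the sum of the members was already below that of stem cells. As a share of all ribosomal protein UMIs, Rps27l was 1.04% in enterocyte and 0.228% in stem barcodes.

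The other intestinal classes were set against stem cells in the same way. Transit amplifying and early progenitor barcodes were at 0.795 and 0.778 times the stem sum, and each had 0 members higher and 1 lower of 81, against 14.3% and 12.5% of all genes higher and 11.4% and 11.9% lower. The members in question were sparse, Rps12 and Rps27, named after their values were seen. Late-1 progenitors stood at 0.583, with 62 of 79 members lower against 28.5% of all genes and 0 higher against 22.9%. Late-2 progenitors stood at 0.558, with 71 of 79 lower against 35.6% and 0 higher against 17.5%. Short of that limit, 75 of 81 members were below 1 in transit amplifying and 72 of 81 in early progenitor barcodes. Their median ratios were 0.794 and 0.791, where the medians of all genes were 1.01 and 1.02.

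Among secretory classes, goblet cells stood at 0.580 of the stem sum, with 63 of 80 members lower against 30.3% of all genes and 1 higher, Rpl36al, against 19.8%. Enteroendocrine cells stood at 0.601, with 61 of 79 lower against 17.7% and 0 higher against 22.3%. Tuft cells stood at 0.505, with 74 of 79 lower against 24.4% and 0 higher against 24.6%. Paneth cells stood 11.5-fold below stem cells in the sum, with 79 of 79 members lower and 0 higher. There 94.6% of all genes were lower and 2.42% higher, so the count says little about the members.

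In the lung, lymphocytes (B, T and NK classes together) were set against fibroblasts (both classes together). Members held 27.5% of lymphocyte UMIs and 9.33% of fibroblast UMIs, a ratio of 2.94 (2.94 to 2.95). Of 84 members 81 could be tested, of which 79 were higher and 1 lower past 1.5-fold. Over all 12264 genes tested, 20.8% were higher and 42.1% lower, and the median ratio was 0.805 against 2.88 for the members. Rpl3l, Rpl10l and Rpl39l had at most 5 UMIs in either group.

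All 31 small subunit genes were higher, summing to 127335 CPM in lymphocytes against 41379.8 CPM in fibroblasts, and all 43 large subunit genes were higher, summing to 130499 CPM against 45689 CPM. Rpl12 was again at the far end, with 4302 CPM in lymphocytes and 933 CPM in fibroblasts, a ratio of 4.61 (4.52 to 4.71). Rps24, a further Diamond-Blackfan gene, had 10495 CPM in lymphocytes and 2432 CPM in fibroblasts (4.31), Rps15a a ratio of 4.23, the stalk gene Rplp2 4.02, Rps18 3.99 and Rps7 3.89. The members that moved least were in part those of the intestine. Rps27l was the 1 member called lower, with 141 CPM in lymphocytes and 248 CPM in fibroblasts (0.569, 0.517 to 0.625). Rpl7l1 did not differ beyond counting error, with 55.1 CPM in lymphocytes and 56.1 CPM in fibroblasts (0.983, 0.838 to 1.15).

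Each lung class was also set against Fibroblast-1. T cells stood at 3.85 times its sum, with 79 of 81 members higher against 18.5% of all genes and 1 lower against 44.9%. B cells stood at 3.03, with 78 higher against 19.9% and 1 lower against 46.7%, and in both classes the lower one was Rps27l. NK cells stood at 2.00 (71 higher against 23% of all genes, 0 lower against 42.3%). Macrophages stood at 2.22 (73 higher against 20%, 0 lower against 44.3%).

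Alveolar macrophages stood at 1.58 times Fibroblast-1, with 52 of 82 members higher against 23.9% of all genes and 0 lower against 39.6%. Fibroblast-2 stood at 1.57, with 48 of 81 higher against 11.3% and 0 lower against 15.3%, so members differed between the fibroblast classes too. Endothelial cells stood at 1.18, with 3 higher against 24.4% and 0 lower against 24.7%. Clara cells stood at 1.02, with 1 higher against 4.24% and 3 lower against 80.7%. Type II pneumocytes stood at 1.15, with 6 higher against 15.4% and 0 lower against 52.4%. The 10 mesothelial barcodes (8 higher against 24.9%, 3 lower against 41.4%) and the 6 Type I barcodes (0 higher against 25.7%, 70 lower against 52%) are too few to read.

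The lowest ratios of lymphocytes over fibroblasts after Rps27l and Rpl7l1 were 1.61 for Rpl22l1, 1.65 for Rpl10 and 1.87 for Rpl7a. Across the 79 members with a ratio in both tissues, the enterocyte over stem ratio and the lymphocyte over fibroblast ratio had a Spearman correlation of -0.33, and of -0.25 over the 75 without paralogs. The comparisons come from different libraries, and the values describe genes, which are not independent.

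**Figure D2:**
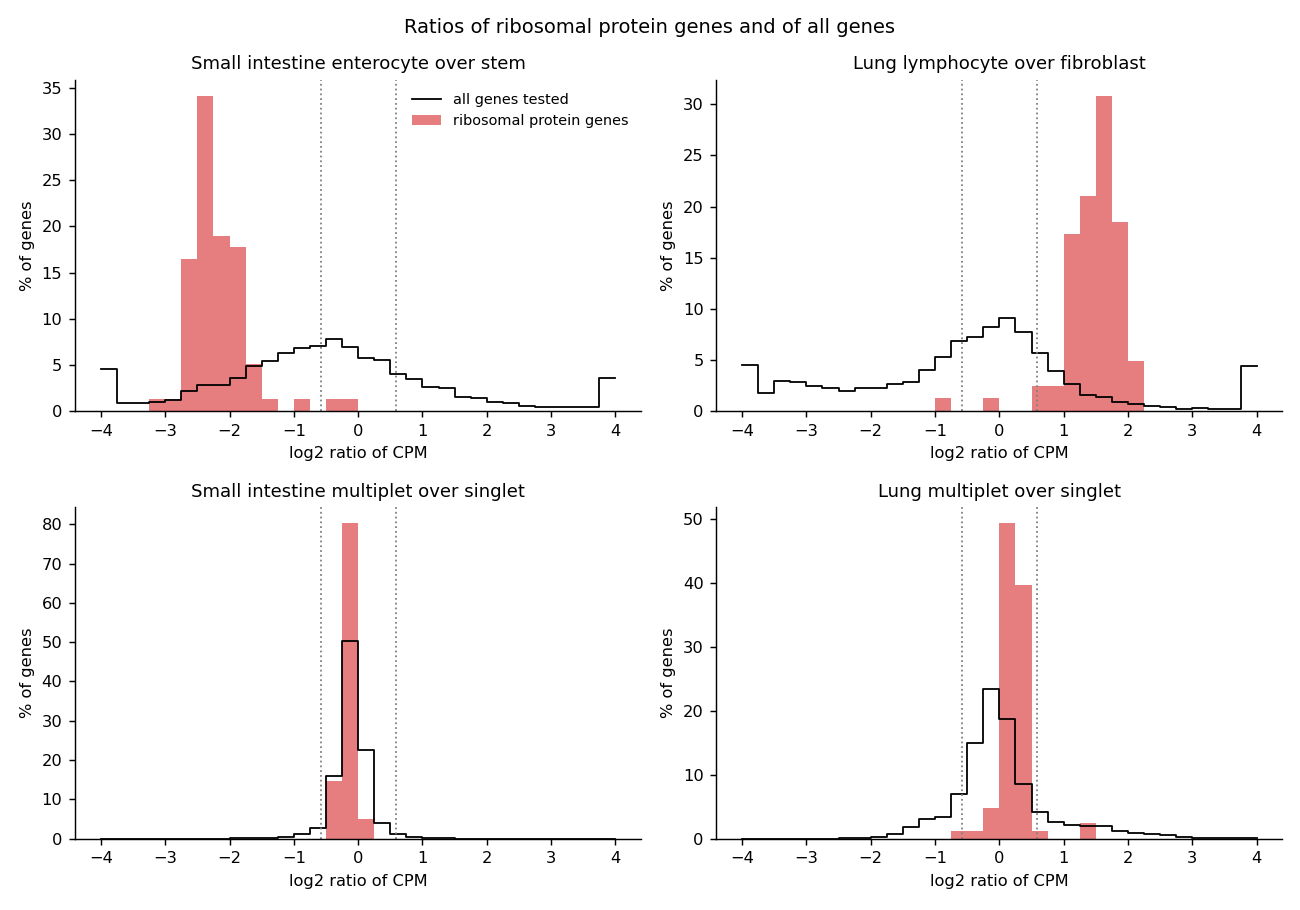
Distribution of log2 ratios of CPM (x axis, bins of equal width; the outermost bins also hold all values beyond them) for ribosomal protein genes (red bars) and all genes tested (black line), as percent of genes (y axis); dotted lines mark 1.5-fold. The members form narrow peaks, below the bulk of genes for enterocyte over stem (median ratio 0.208) and above it for lymphocyte over fibroblast (2.88), and lie near no change for multiplet over singlet.

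Because the members moved together, the letters at their transcription starts are shown for some that moved far and some that moved less. RefSeq promoter windows (build GRCm38.p6) were found for 64 members, 76 windows in all. Each line runs 5′ to 3′ on the gene's strand, from 40 bases before the annotated start to 20 from the start on, with capitals on the longest run of C and T near the start. Rpl12 and Rps18 are among the 6 most extreme ratios of both main comparisons and Rplp2 among those of the lung, while its ratio in the intestine, 0.248, is nearer to 1 than the median of 0.208. Rps19, Rpl35, Rps24 and Rps15a have windows too and are not printed. The windows are those of Rpl12 (chr2:32961672-32961731, plus strand), Rps18 (chr17:33955646-33955705, minus strand) and Rplp2 (chr7:141447611-141447670, plus strand).
Rpl12: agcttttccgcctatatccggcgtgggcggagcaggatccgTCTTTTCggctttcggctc
Rps18: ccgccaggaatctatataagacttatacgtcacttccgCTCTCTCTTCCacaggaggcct
Rplp2: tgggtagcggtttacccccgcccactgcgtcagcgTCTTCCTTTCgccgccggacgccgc
Members that moved less in the intestine are Rpl7a (chr2:26910767-26910826, plus), Rpl38 (chr11:114668540-114668599, plus), Rpl41 (chr10:128549149-128549208, minus), Rps27l (chr9:66946046-66946105, plus, the longer run of its windows), Rpl36al (chr12:69184048-69184107, minus) and Rpl7l1 (chr17:46782637-46782696, minus). Of these, Rpl7a, Rps27l and Rpl7l1 are also among the 6 lowest ratios of the lung comparison, and Rpl38, Rpl41 and Rpl36al are not.
Rpl7a: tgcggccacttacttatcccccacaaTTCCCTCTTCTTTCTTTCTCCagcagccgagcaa
Rpl38: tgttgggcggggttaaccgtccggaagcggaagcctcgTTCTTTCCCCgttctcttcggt
Rpl41: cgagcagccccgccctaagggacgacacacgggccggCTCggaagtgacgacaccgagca
Rps27l: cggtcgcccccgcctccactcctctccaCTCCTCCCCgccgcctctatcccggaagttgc
Rpl36al: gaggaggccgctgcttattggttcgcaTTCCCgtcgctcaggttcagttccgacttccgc
Rpl7l1: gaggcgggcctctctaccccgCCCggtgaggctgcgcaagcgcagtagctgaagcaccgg

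The longest run near the start was 21 letters in Rpl7a, 11 in Rps18, 10 in Rplp2 and Rpl38, 9 in Rps27l, 7 in Rpl12, 5 in Rpl36al and 3 in Rpl41 and Rpl7l1. It spanned the annotated start in Rpl7a, Rps18, Rplp2 and Rpl38, lay after it in Rpl12, and ended before it in Rps27l, Rpl36al, Rpl41 and Rpl7l1. A run of at least 8, on the gene's strand within 20 bases of the start, was in 31 of the 76 member windows (40.8%) and in 16.0% of all 32851 windows. Members were split by whether any of a gene's windows held such a run, and run length itself was not set against the ratios. In the enterocyte over stem comparison the median ratio was 0.212 for 30 members with such a run and 0.205 for 29 without. In the lymphocyte over fibroblast comparison it was 2.90 for 30 members with a run and 2.69 for 31 without, inside the middle 50% of either set. Other letter strings were sought in the whole window on both strands, each counted on its own. CCGGAAG, read by Ets-family factors, was in 35.5% of member windows and 8.86% of all windows. AAGATGGC, the string of the factor YY1, was in 10.5% and 2.75%, and TATAAA, the TATA box, in 9.21% and 13.6%. A match describes letters and no binding.

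The stalk genes kept pace with the sum in the intestine and spread apart in the lung. Rplp0, the anchor of the stalk, had 1807 CPM in enterocytes and 9694 CPM in stem cells (ratio 0.186), Rplp1 had a ratio of 0.202 and Rplp2 one of 0.248. In lymphocytes against fibroblasts the ratios were 3.78 for Rplp0, 2.496 for Rplp1 and 4.02 for Rplp2. Within single lung classes Rplp1 had 10362 CPM in T cells and 2944 CPM in Fibroblast-1, and Rplp0 had 5452 CPM in T cells and 906 CPM in Fibroblast-1. As a share of ribosomal protein UMIs, Rplp1 was 4.09% in ciliated cells, its highest in the lung, and 0.406% in Paneth cells, its lowest in the intestine.

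Some ribosomal proteins are made as fusions to ubiquitin or a ubiquitin-like protein, and of those described here only Rps27a is a member by symbol. Rps27a had 1129 CPM in enterocytes and 5839 CPM in stem cells (ratio 0.193). Fau, which encodes a small subunit protein, had 2819 CPM in enterocytes and 3671 CPM in stem cells (0.768, 0.744 to 0.792). In lymphocytes against fibroblasts the ratios were 2.92 for Rps27a and 4.15 for Fau. Both were called higher in lymphocytes, while Rps27a was called lower in enterocytes and Fau was not.

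Among the 4 paralogs with a mean of at least 20 CPM over classes, Rps27l varied most as a share of the members' UMIs. It made up 1.65% of ribosomal protein UMIs in Paneth cells and 0.228% in stem cells, and in the lung 0.828% in ciliated cells and 0.038% in B cells. Its lung level was 488 CPM in alveolar macrophages, 444 in ciliated cells, 135 in T cells and 96.3 in B cells, so it was lowest in the classes where most members were highest. Its partner by name, Rps27, was sparse, at 154 CPM in T cells, 131 CPM in B cells and 28.8 CPM in ciliated cells. Rps27 shares 58.5% of its transcript end with other genes, as matched below. The copy Rps27rt had 62.4 CPM in lung singlets, where Rps27 had 42.2 CPM. The part of shared ends in the low level of Rps27 was not tested.

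Rpl22l1 is a relative of Rpl22, a gene needed in mice for the growth of alpha-beta T cells. Rpl22 had 2443 CPM in T cells, 2094 CPM in B cells, 1179.7 CPM in Fibroblast-2 and 819 CPM in Fibroblast-1. Rpl22l1 had 1157 CPM in T cells, 755 CPM in B cells, 895 CPM in Fibroblast-2 and 531 CPM in Fibroblast-1. Rpl22l1 thus stood higher in Fibroblast-2 than in B cells, the reverse of Rpl22. In the intestine Rpl22l1 was nearly level from stem (1466 CPM) through transit amplifying (1424 CPM) to early progenitor barcodes (1509 CPM), while Rpl22 had 2030.4, 1666 and 1621 CPM in these classes.

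Rpl36al peaked in goblet cells at 114 CPM among the intestinal classes. In the lung it had 927 CPM in T cells and 347 CPM in Fibroblast-1, and made up 0.776% of ribosomal protein UMIs in Type II pneumocytes. Rpl7l1 stayed between 26.5 and 69.7 CPM over the 11 lung classes with at least 50 barcodes. The last 3 paralogs are known from other tissues, Rpl3l from striated muscle and Rpl10l and Rpl39l from testis. Rpl3l had 64 UMIs in alveolar macrophages (18.8 CPM, exact Poisson interval 14.4 to 24.0), in 44 of 227 barcodes, and 28 UMIs in macrophages (10.7 CPM), in 22 of 283 barcodes. In Fibroblast-1, which gives the background, it had 1 UMI in 2964 barcodes, at a median depth of 6562 UMIs against 14028 in alveolar macrophages and 8574 in macrophages. Rpl39l had 12 UMIs in 4 alveolar macrophage barcodes, and Rpl10l 8 UMIs in the whole singlet library.

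The balance of the subunits moved little between classes. Small subunit genes were 43.2% to 47.0% of ribosomal protein UMIs over the intestinal classes and 40.1% to 46.7% over the lung classes, with the low ends in Paneth and ciliated cells. Variation of a member across classes was measured as the coefficient of variation, the SD over the mean, in classes of at least 50 barcodes for members with a mean of at least 20 CPM. For CPM its median was 0.473 over 77 intestinal members and 0.551 over 81 lung members, and for a member's share of the ribosomal protein UMIs it was 0.083 and 0.132. Single shares did differ between the classes with the highest and the lowest share. The difference passed 1.5-fold for 19 of 77 intestinal and 50 of 81 lung members, and 2-fold for 4 and 12 of them. These extremes are taken over 10 intestinal and 11 lung classes. No such count was made over all genes, so it is not known whether these numbers are large. In the intestine 68 of the 77 peaked in stem cells and 77 were lowest in Paneth cells. In the lung 76 of 81 peaked in T cells and 73 were lowest in ciliated cells. How many of all genes peak or are lowest in these classes was not counted. Since 94.6% of all genes were lower in Paneth than in stem cells, the Paneth count says little about the members.

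The steadiest levels across intestinal classes were those of Rps27l, Rpl36al, Rpl7l1, Rpl41, Rpl38 and Rpl7a, at coefficients of 0.235 to 0.404. The least steady were Rpl12 at 0.560, Rpl3, Rps19, Rps20, Rpl13a and Rpsa, the last of which is also known as a laminin receptor. In the lung the steadiest included Rpl7l1 at 0.223, Rpl41, Rpl31, Rpl36al and Rpl7a, and the least steady were Rpl12 at 0.893, Rps24, Rps27, Rps15a, Rps20 and Rpsa. Rpl12, Rps20 and Rpsa were in the variable set and Rpl7l1, Rpl36al, Rpl41 and Rpl7a in the steady set of both tissues.

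A few classes had a make-up of their own. In ciliated cells Rpl41 had 2185 CPM and was 4.07% of the ribosomal protein UMIs, against 1.04% in T cells. Against Fibroblast-1, ciliated cells had 2 members higher and 51 lower, where 29.6% and 32.8% of all genes were; the 2 were Rpl41 at 2.14-fold and Rps27l at 1.83-fold. In Type II pneumocytes Rps19 was 3.16% of the ribosomal protein UMIs, its highest, with 3045 CPM against 1354 CPM in Fibroblast-1 (2.25-fold), and NK cells had its lowest share at 1.05%. Rpl21, picked out here after its values were seen, was 1.90% in Type II pneumocytes, with 1835 CPM against 986 CPM in Fibroblast-1.

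**Figure D3:**
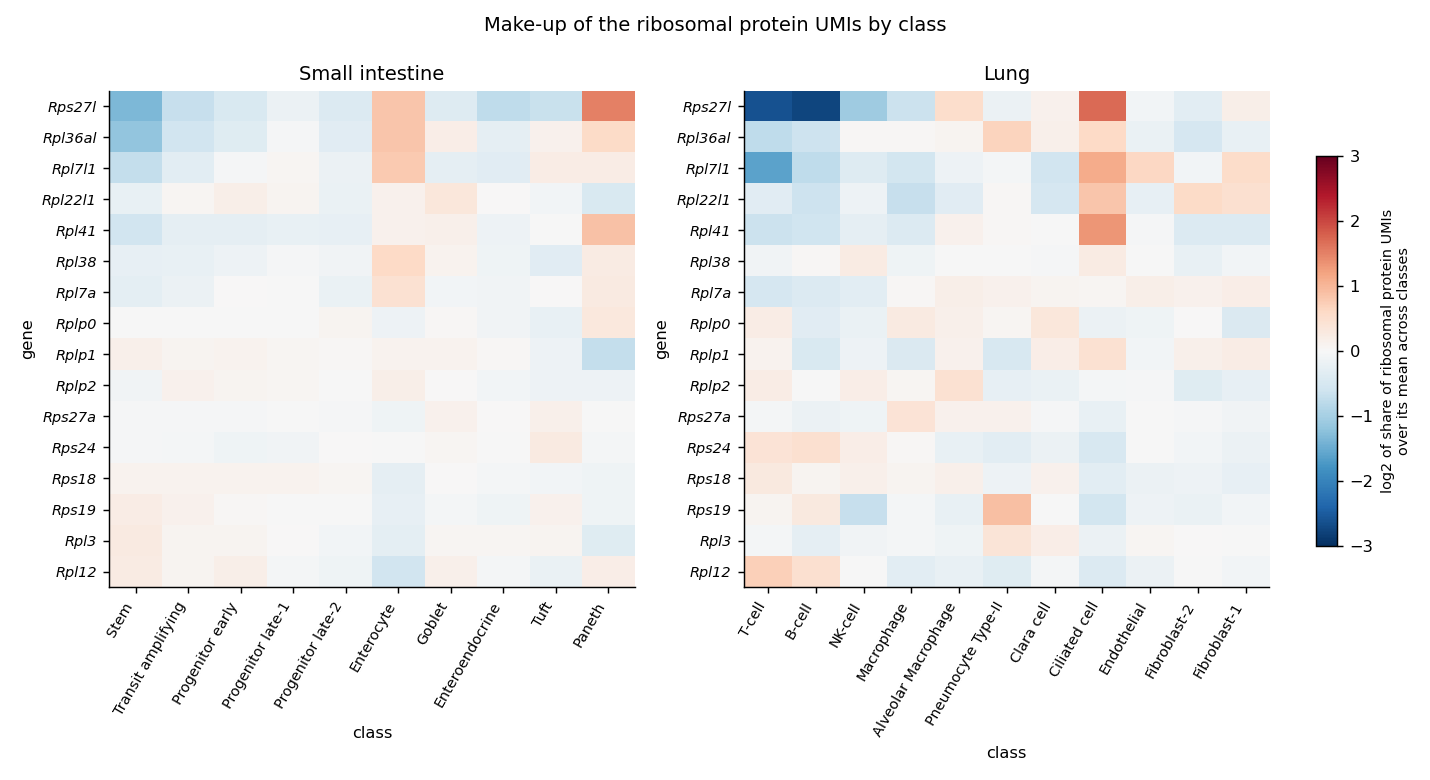
Share of all ribosomal protein UMIs held by each of 16 members (rows), shown as log2 of the share over its mean across classes (colour), in classes (columns) with at least 50 barcodes. Rps27l runs from its lowest shares in stem, T and B cells to its highest in Paneth (1.65%) and ciliated cells (0.828%), while Rpl12 is high in T and B cells and low in enterocytes.

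Many members share their transcript ends with other genes. Pieces of 50 bases from the last 300 bases of each annotated transcript were matched to all other annotated genes (GENCODE vM21). Of the 77 core members, 39 shared over 50% of these pieces with another gene. How common such sharing is among all genes was not counted. Rpl10, an X-linked core gene that shared 90.4% and is picked out here for its low level, had only 10.9 CPM in intestinal singlets, where the copy Rpl10-ps3 had 52.6 CPM. Rpl12, Rps20, Rpl27a and 5 other core members shared none. In the intestine the median level was 1444 CPM for the 39 core members that shared over 50%. It was 2616 CPM for the 30 that shared some, up to 50%, and 1541 CPM for the 8 that shared none. Members under 100 CPM there numbered 4, 1 and 0 in these groups. In the lung the medians were 1504, 2222 and 1871 CPM in the same order. The part of shared ends in these levels was not tested. Levels cannot be set across tissues: Rps12 had 2151 CPM in lung singlets and 12.4 CPM in intestinal singlets, Rpl27 had 1062 and 5.80 CPM, and Rpl13a had 1425 and 112 CPM. The tables of the tissues also use different symbol sets, since 151 symbols found only in the intestinal tables are older names of symbols found only in the lung tables. The copies Rps12-ps3, Rpl27-ps3 and Rpl13a-ps1 had 13.3, 16.4 and 0.82 CPM in intestinal singlets and are not found in the lung tables. Other copies, such as Rpl10-ps3, are in the tables of both tissues. Whether the gene models differ as well, and the part of such copies in the levels above, was not tested.

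The other genes of translation were taken from lists of textbook genes. Ribosome assembly genes, which make and fold the ribosomal RNA, were lower in enterocytes than in stem cells for 21 of 23 tested and higher for 0, where 48.2% of all genes were lower and 22% higher. Npm1, the nucleolar shuttle nucleophosmin, had 214 CPM in enterocytes and 2315 CPM in stem cells (ratio 0.092), and Fbl, which methylates ribosomal RNA, a ratio of 0.086. In lymphocytes against fibroblasts 11 of 25 were higher and 3 lower, where 20.8% and 42.1% of all genes were, with a ratio of 2.60 for Npm1. Myc, which drives ribosome assembly genes, had 5 UMIs in enterocytes and 296 in stem cells (0.030, 0.010 to 0.071), and 55.7 CPM in lymphocytes against 7.62 CPM in fibroblasts (7.31-fold).

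Elongation factors went the way of the members, with 7 of 7 lower in enterocytes (48.2% of all genes) and 7 of 7 higher in lymphocytes (20.8% of all genes). Eef1a1, which brings transfer RNA to the ribosome and whose message also starts with a C and T run, had ratios of 0.254 and 2.37. Initiation factors were lower in enterocytes for 23 of 28, against 48.2% of all genes, and higher for 1, against 22%: Eif6, a factor that keeps the subunits apart, at 1.93-fold. In lymphocytes 8 of 28 were higher and 0 lower, where 20.8% and 42.1% of all genes were, so the higher count is not far from the background. Pabpc1, the poly(A) binding protein, was the lowest of them in enterocytes at 0.147 and the highest in lymphocytes at 3.40. Rack1, a small subunit partner, had ratios of 0.182 and 3.39.

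Genes of the mitochondrial ribosome, which serves the organelle's own messages, did not share the pattern. Of 38 tested, 5 were higher and 8 lower in enterocytes, where 22% and 48.2% of all genes were, with a summed ratio of 1.03. In lymphocytes 3 were higher and 4 lower, where 20.8% and 42.1% were, also with a summed ratio of 1.03. Among genes of translation control, 5 of 7 were lower and 1 higher in enterocytes (48.2% and 22% of all genes), and 1 of 11 was higher and 1 lower in lymphocytes (20.8% and 42.1% of all genes). In lymphocytes the lower one was Eif4ebp1, an inhibitor of cap binding, at 0.204, and the higher one was Myc.

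Within classes the share was not uniform. T cells fell into a lower and an upper group, with 14.1% of 334 barcodes at 25 to 30%, 5.99% at 30 to 35% and 22.2% at 40 to 45%. Genes for these states were picked after the spread was seen and describe it only. The 176 T cells with at least 3 UMIs of the effector genes Ccl5, Nkg7, Cxcr6, Gzmb and S100a4 had a median of 25.6%, against 41.0% in the 115 with 0. Median depths were 5583.5 and 4754 UMIs.

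Enteroendocrine cells showed a similar divide. The 119 barcodes with at least 3 UMIs of the hormone and granule genes Chga, Chgb, Cck, Gip, Sst, Tac1 and Reg4 had a median share of 10.5%, against 23.9% in the 52 with 0. The 42 barcodes with at least 3 UMIs of Neurog3, the transcription factor of enteroendocrine progenitors, had 19.8%, against 10.9% in the 120 with 0. Depth moved with the first pair, at a median of 5081 and 6963.5 UMIs, and so did mitochondrial RNA, at 1.98% and 4.35%; their part was not tested. In stem and B cells the barcodes formed 1 main peak each, with 67.0% of stem and 44.7% of B cell barcodes at 25 to 30%.

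**Figure D4:**
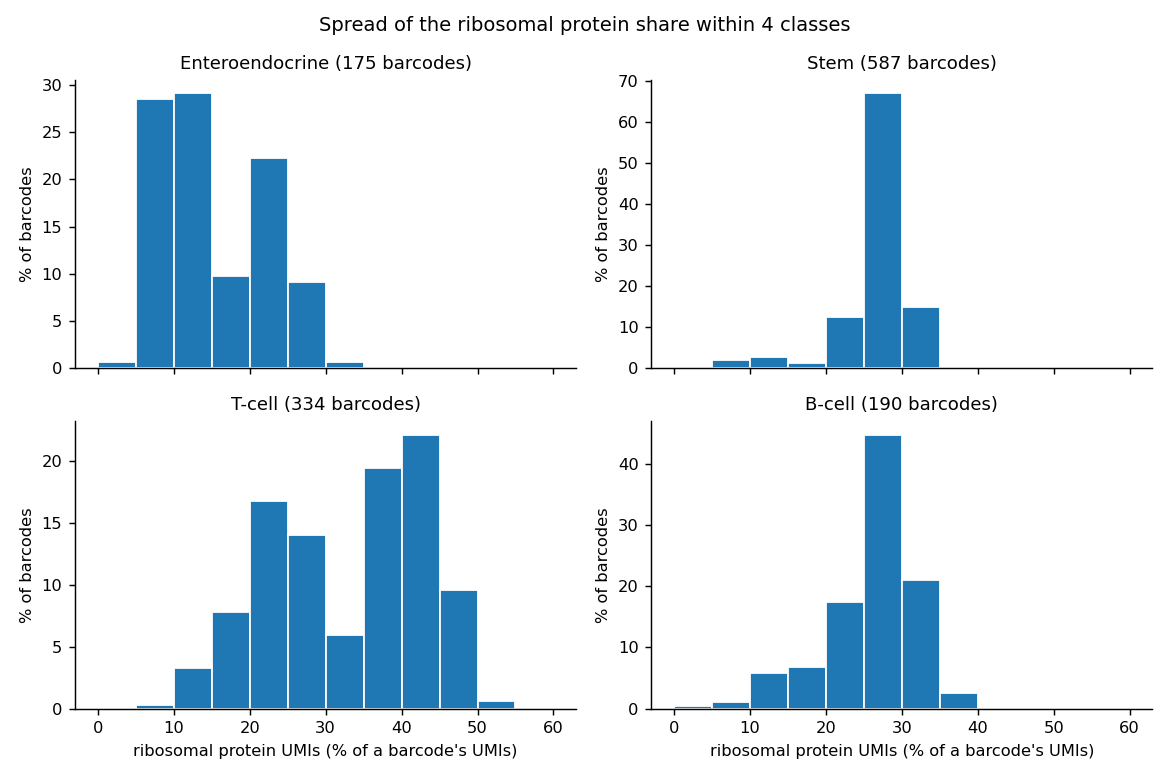
Distribution of the ribosomal protein share (x axis, percent of a barcode's UMIs) over barcodes (y axis, percent of the class) in enteroendocrine, stem, T and B cells. T cells show a dip at 30 to 35%, which holds 5.99% of barcodes, and enteroendocrine cells one at 15 to 20% (9.71%), while stem and B cells have 1 main peak.

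Multiplets differed little from singlets, and in opposite directions in the tissues. In the small intestine members held 16.0% of multiplet UMIs and 18.0% of singlet UMIs, a ratio of 0.889 (0.888 to 0.889). Of 81 members, 0 were higher and 0 lower past 1.5-fold, where 1.42% and 3.87% of all genes were. A ratio below 1 was seen for 77 members. The median of all 11674 genes tested was also below 1, at 0.933 against 0.891 for the members. The lowest ratios were 0.776 for Rpl36a, 0.780 for Rps28 and 0.784 for Rps19, followed by Rps27, Rps26 and Rps29. The highest were 1.07 for Rpl23a, at the mouth of the peptide tunnel, and 1.03 for Rpl36al, and Rpl5, Rps15 and Rpl27 were also among the highest.

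In the lung members held 13.1% of multiplet UMIs and 10.998% of singlet UMIs, a ratio of 1.19 (1.19 to 1.19). Of 83 members tested, 2 were higher and 0 lower, where 15.9% and 13.8% of all genes were. The 2 were sparse paralogs. Rpl3l had 285 UMIs in multiplets and 99 in singlets (2.46-fold, 1.95 to 3.12), and Rpl39l 68 UMIs in multiplets and 22 in singlets (2.64-fold, 1.61 to 4.49). Among the other members tested the highest ratios included 1.37 for Rps9, 1.31 for Rps27a and 1.30 for Rpl32. The lowest were 0.701 for the sparse Rps27, 0.768 for Rpl9, 0.862 for Rpl7l1 and 0.879 for Rpl36a, then Rpl35 and Rpl22l1. Of the 81 members found in both tissues, 71 had a ratio below 1 in the intestine and above 1 in lung. The same was not counted over all genes. Their median ratio was 0.933 in the intestine and 0.963 in the lung, against 0.891 and 1.18 for the members.

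To set these levels beside the cell types in each cluster, every multiplet was fitted as a mixture of the singlet class profiles, on class-defining genes with no ribosomal protein gene among them. In the small intestine 16.0% was observed and 16.8% predicted, a ratio of observed to predicted of 0.951, and held-out singlets fitted the same way gave 0.964. In the lung 13.1% was observed and 12.7% predicted, a ratio of 1.03, and held-out singlets gave 1.001. The fitted Paneth weight averaged 10.5% over intestinal multiplets, where Paneth barcodes held 4.83% of singlet UMIs, and for enterocytes the values were 6.41% and 4.20%. In the lung, macrophages had a weight of 19.1% in multiplets and 4.63% of singlet UMIs, alveolar macrophages 17.9% and 6.02%, and Fibroblast-1 15.6% and 38.1%. Neutrophil markers, for which the fit has no class, summed to 1650 CPM in lung multiplets and 162 CPM in lung singlets, against 3139 CPM in the Macrophage class. Their part in the macrophage weight was not tested.

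Among multiplets, prediction held less well for low shares in the small intestine than for those in the lung. Over single multiplets the Spearman correlation of observed and predicted shares was 0.834 for small intestine and 0.681 for lung, over barcodes of 1 library. Multiplets were ranked by prediction and cut into 10 bins. In the lowest intestinal bin the medians were 2.74% observed and 5.63% predicted, and in the next bin 8.23% and 13.3%. In the lowest lung bin they were 8.35% observed and 8.38% predicted, and in the next 10.05% and 8.50%. Held-out Paneth and enterocyte singlets were over-predicted too, at ratios of 0.778 and 0.833. So were held-out lung singlets in their lowest bin, with medians of 5.38% observed and 8.30% predicted. In their highest bin the medians were 27.9% and 28.4%. By member, no ratio of observed to predicted passed 1.5-fold in 81 intestinal and 82 lung members for which either number reached 200 UMIs. Other genes were not counted this way, so it is not known whether this sets the members apart. Intestinal members ran from 0.832 for Rpl36a to 1.14 for Rpl23a, and lung members from 0.680 for Rps27 to 1.15 for Rps2. For Rpl3l in the lung 285 UMIs were observed where the fit gave 363, a ratio of 0.784 (0.696 to 0.881).

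**Figure D5:**
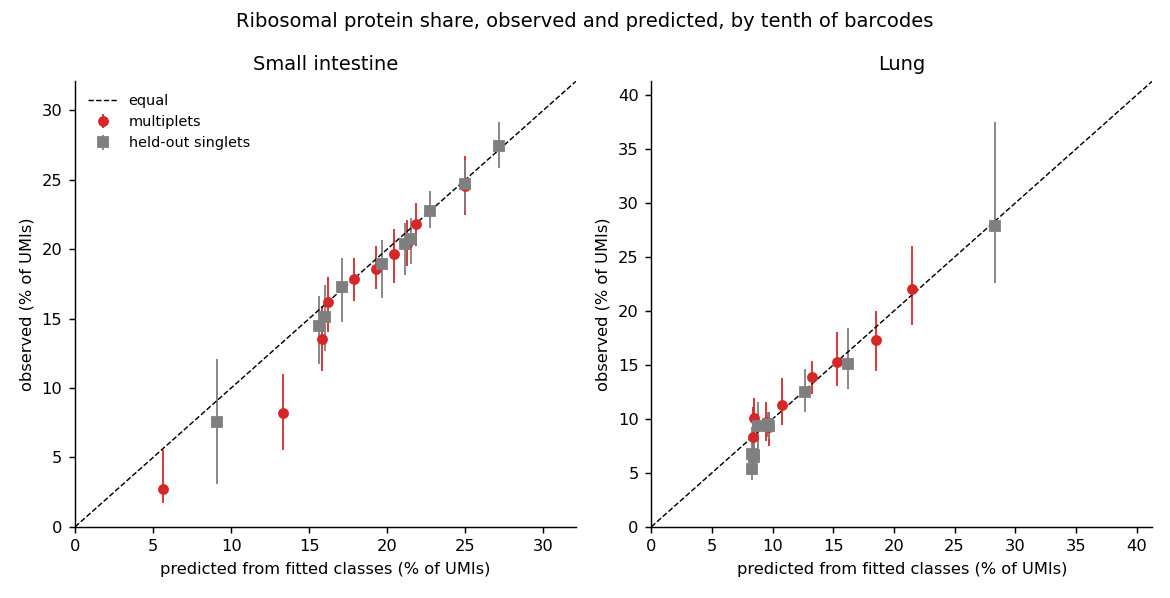
Observed ribosomal protein share (y axis, percent of UMIs; median with the middle 50% of barcodes as bars) against the share predicted from the fitted classes (x axis, percent of UMIs), for 10 bins of barcodes ordered by prediction, in multiplets (red circles) and held-out singlets (grey squares). The lowest bins of intestinal multiplets (2.74% observed, 5.63% predicted) and of held-out lung singlets (5.38%, 8.30%) lie below the line of equality, while that of lung multiplets (8.35%, 8.38%) lies on it.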

How the data were processed

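The authors deposited, for every library, raw UMI counts by gene symbol and barcode, and, per the file headers, a barcode list with a quality flag and, for singlets, the cell class. Libraries were made with the Chromium 3′ v3 kit, per the labels' protocols, and the submitters' processing notes name Cell Ranger 4.0.0 and the genome build mm10. Sources used here do not give how classes, flag and clusters were made. Every barcode with counts passes the flag and none was removed; further listed barcodes were not analysed here. Scrublet (scanpy 1.11.5) marked 85 intestinal and 126 lung singlets as doublets, which were kept.

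Counts were summed per class or library and divided by all UMIs. Shares carry Clopper-Pearson, sums Poisson and ratios binomial-split intervals, all exact at 95%; PCR and library differences are not covered. With 1 library per group there was no test. Members named are the 6 highest and 6 lowest ratios of each main comparison, the 6 most and 6 least variable per tissue, and all paralogs, stalk and ubiquitin fusion genes; a few genes that this rule names are not reported here. Members, lists and limits were chosen with earlier results of these data known. Mixtures used 40 defining genes per class, 300 iterations and, for held-out singlets, profiles from singlets of the other random split. The computations were checked on simulated counts. Alternatives covered weighting, denominators, TMM scaling (edgeR 4.0.16), paralogs, doublets, depth, fold limit and UMI minimum. Python was 3.11.15.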

Additional observations from a re-analysis of the deposited data

Results flagged for a closer look

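The summed level of ribosomal protein genes in multiplets over singlets was 0.889 for small intestine but 1.19 for lung, opposite directions under the same contrast. With 1 library per group the difference between the tissues was not tested.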

How the results depend on the processing

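Of 66 alternative settings, 32 left the value within its counting interval or count limit, 34 moved it and 0 reversed a direction; the intervals are narrow. Some of the 32 carry no information. The shallowest small intestine singlet (1694 UMIs) is deeper than the shallowest multiplet (1591 UMIs), so a depth limit there removes nothing. Where 0 members were called, a fold limit of 2 or a minimum of 200 UMIs could only give 0 again. The summed enterocyte over stem ratio of 0.206 became 0.195 with each barcode weighted equally, 0.211 without mitochondrial genes, 0.204 without paralogs, 0.204 without Scrublet doublets, 0.203 for members with few shared transcript ends (an alternative chosen after seeing the data), 0.251 without the 50 most abundant other genes of either class and 0.284 with TMM scaling. TMM scaling raised the median log2 ratio of all genes by 0.46 there and moved the higher share of calls to 47.3%, against 31.3% with class totals. The lymphocyte over fibroblast ratio of 2.94 became, over the same settings in that order, 3.16, 2.97, 2.96, 3.12 and 3.14, then 2.98 with TMM scaling and 2.92 with singlets of at least 5006 UMIs, the depth of the shallowest lung multiplet. The small intestine multiplet over singlet ratio of 0.889 became 0.880 with equal weights, 0.894 without mitochondrial genes, 0.881 with few shared ends and 0.955 with TMM scaling, which raised the median of all genes by 0.10 and moved the higher share of calls to 43.8%, against 26.9%. The lung ratio of 1.19 became 1.13, 1.18, 1.19, 1.19 and 1.20 over the 5 settings, 1.23 with TMM scaling and 1.21 with singlets of that depth.

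Observed over predicted in the small intestine became 0.960 with 20 defining genes, 0.952 with weights under 0.15 set to 0 and 0.953 without doublets, and in the lung 1.02, 1.03 and 1.02. With a fold limit of 2 lymphocytes had 0 members lower in place of 1. For lung multiplets a minimum of 200 UMIs left 1 member higher in place of 2, and no minimum gave 1 lower in place of 0. In each case fewer or more members could pass by construction; the cause of the other moves was not tested. No replicate could be left out. No paired analysis was possible because each group has 1 library.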
